A study of Avena sativa with 108 samples.

Results

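Whole developing grain of hexaploid oat (Avena sativa) was compared between 20 and 25 DPE (days postemergence of the panicle) by RNA-seq, and the libraries of that comparison were taken as those labelled whole grain at 20 or 25 days. They number 12 of the 108 libraries of the series and 12 of its 48 libraries of developing grain, with 6 at 20 DPE and 6 at 25 DPE. At each time there were 3 libraries of the cultivar AC Morgan and 3 of the cultivar CDC Morrison, neither of which carries a transgene or a treatment in the labels. The plants were grown in a glasshouse, and the study's methods describe a replicate as 10 grains with the glumes taken off, pooled from a single panicle. Libraries were made with a stranded mRNA kit and read from 1 end. A pooled sample of whole grain holds embryo, aleurone, starchy endosperm and pericarp together, so for every gene below, fewer cells of a type and less RNA per cell cannot be told apart.

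Cereal grain fills while its starchy endosperm stops dividing and packs starch and storage proteins. The aleurone, the outer layer of the endosperm, and the embryo store oil and vicilin-like globulins and later prepare for drying, with late embryogenesis abundant (LEA) proteins, small heat shock proteins and raffinose sugars as the known components of that preparation. The pericarp, the maternal tissue around the endosperm, is green in young grain and loses its chloroplasts as the grain matures. Oat is known for storing most of its grain protein as 12S globulins, with less of the prolamins called avenins, and for an endosperm and aleurone rich in oil and in mixed-linkage glucan.

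Total counts ran from 21957998 to 30846412 per library, and the 10 genes with the most counts in a library took 15.3 to 27.3% of them. The markers fitted the tissue label: 12S globulins took 22.2 to 40.3% of the counts in every library and avenins and other prolamins 8.93 to 13.6%. A pair of the 20 DPE libraries stood apart from the rest of their groups. AC Morgan replicate 1 at 20 DPE had 0.0787% of its counts in vicilin-like globulins, against 0.902 and 0.615% in replicates 2 and 3. CDC Morrison replicate 2 at 20 DPE had 0.121%, against 1.75 and 1.08%. These libraries also held the least LEA RNA of the 12, 0.033 and 0.0327% of counts, and the most sucrose synthase RNA of their groups, 0.751 and 0.963%. CDC Morrison replicate 2 also stood apart over all genes, at 24.1 on the first principal component of log2 CPM (43.8% of the variance) where the other CDC Morrison libraries lay from 112 to 171. Over all counts, AC Morgan replicate 2 at 20 DPE was the library of its group farthest from the other 2: the variance between libraries was 120.3 and 114.1 times the counting error with replicates 1 and 3, against 40.17 times between those. It also held more core histone RNA, 0.299% against 0.134 and 0.123%, and more oil body protein RNA, 1.24% against 0.274 and 0.457%. Counts of genes were also made without AC Morgan replicate 1 and CDC Morrison replicate 2 (without the pair), chosen by the shares above. Leaving the pair out thus removes outlying values by design in vicilin-like globulins, LEA proteins, sucrose synthases and genes that vary with them. A smaller p or more calls in these without the pair is no separate support. Without AC Morgan replicate 2 at 20 DPE alone, 4333 genes were higher and 4478 lower, against the 4302 and 4833 over 12 libraries given below.

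**Figure D1:**
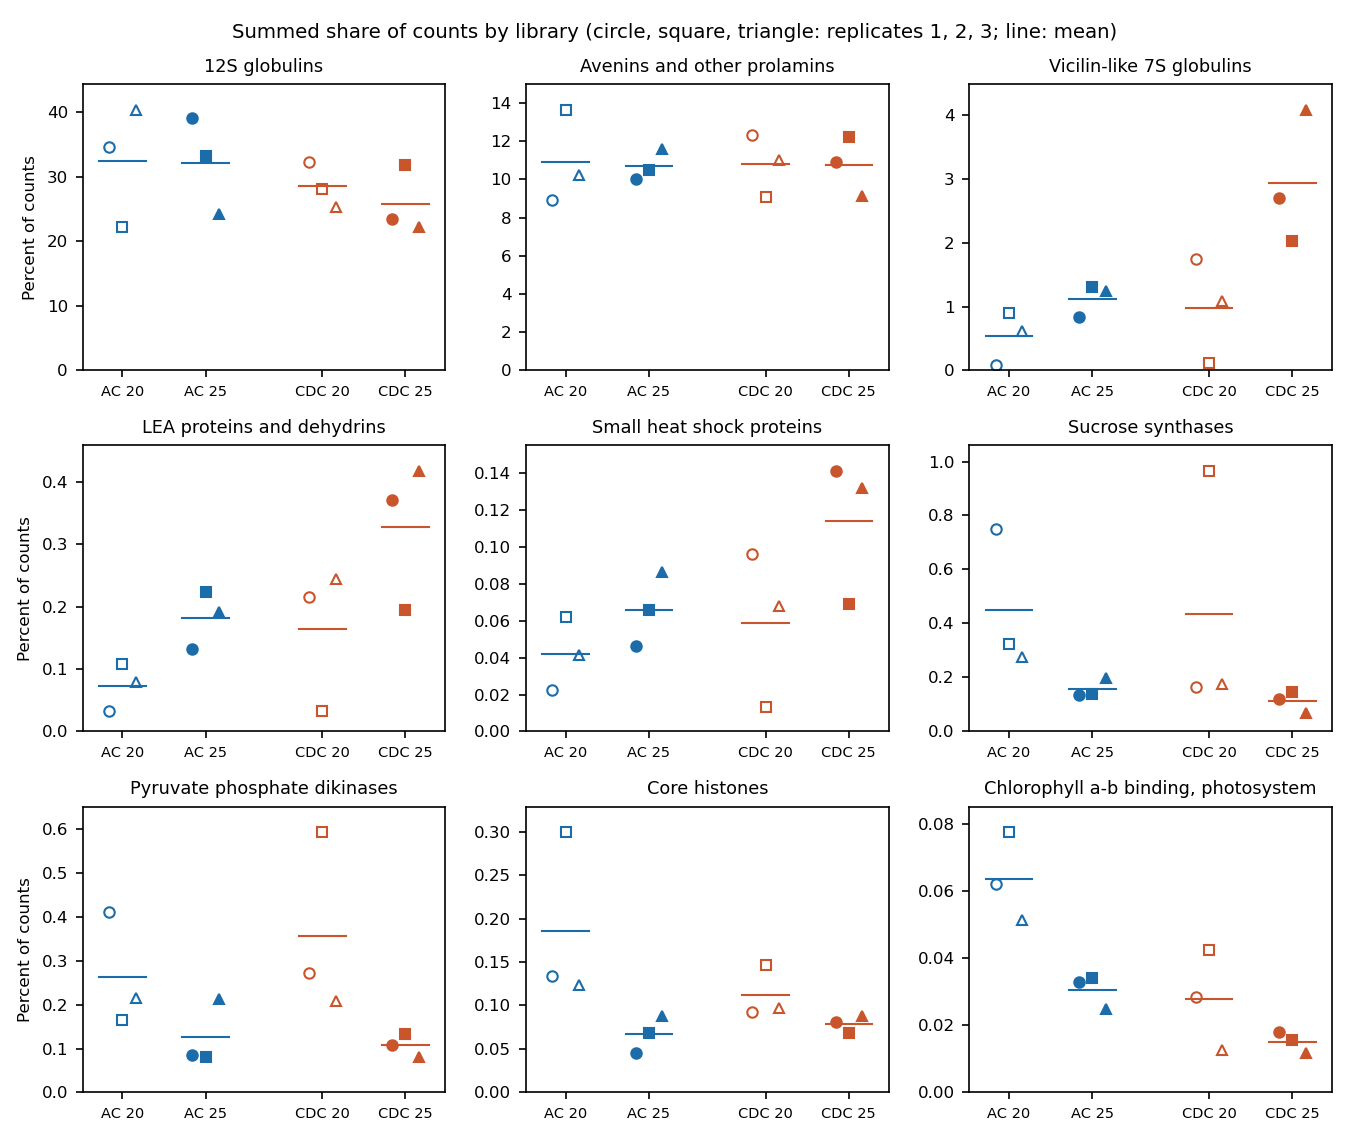
Summed share of the counts (percent, linear axes from 0) taken by 9 groups of genes in each of the 12 libraries, with open symbols for 20 DPE, filled symbols for 25 DPE and a line for the mean of 3 libraries. AC Morgan replicate 1 (circle) and CDC Morrison replicate 2 (square) at 20 DPE have the lowest shares of vicilin-like globulins, 0.0787 and 0.121%, and of LEA proteins, 0.033 and 0.0327%.

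Of 57999 genes tested, 4302 (7.42%) were higher and 4833 (8.33%) were lower at 25 than at 20 DPE by edgeR's quasi-likelihood test with cultivar as a block and Benjamini-Hochberg adjustment at 0.05. All adjusted p-values below are from this test unless another is named. The median change was 1.00 on the log2 scale among genes that rose and -1.04 among genes that fell, and -0.02 over all genes tested, and 2136 and 2547 of them changed by at least 1. In 3304 genes (5.70%) all libraries at 25 DPE lay above those at 20 DPE within each cultivar, and in 3039 (5.24%) all lay below. Without the pair, 2529 of 57518 genes (4.40%) were higher and 2404 (4.18%) lower, and 4534 of these 4933 calls were also called, with the same sign, over 12 libraries. Counts of list members below are to be set against 7.42% higher and 8.33% lower over 12 libraries. Those without the pair are to be set against 4.40 and 4.18%. Genes are named by the end of their identifiers, whose shared start is AVESA.00001b.r3, and the first digit and letter give the chromosome and its subgenome (A, C or D). Protein names are those of the closest proteins of other species in the deposited table, and reads of nearly identical homeologs could be split between them in quantification. Levels are CPM (counts of a gene per 1000000 counts of the library) after scaling by trimmed mean of M values (TMM) over the 12 libraries. They are not per length, so a gene said to have the most counts of a list is not thereby the one with the most RNA molecules.

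The 10 higher and 10 lower genes described first had the smallest p among those with a protein name, a change of at least 1 on the log2 scale and no overlap between the times in either cultivar, so the lack of overlap in them comes from the choice. Some of the lower ones were all but undetected at 25 DPE. The gene 5Cg0003120, which matches the GDSL esterase/lipase At1g28600 of Arabidopsis thaliana, was at 39.2, 109.8 and 117 CPM in the AC Morgan libraries at 20 DPE, against 0, 0 and 0.0306 CPM at 25 DPE. In CDC Morrison it was at 18.1, 75.7 and 0.32 CPM at 20 DPE and at 0 CPM in each library at 25 DPE. GDSL enzymes cleave ester bonds of lipids and related compounds. Against a floor of 3 counts over the group, the CDC Morrison fall was at least 798-fold (2288 counts against 0). In AC Morgan 6651 counts faced a single one, a ratio of 6850 with a 95% exact counting interval of 1229 to 270609. The blocked test gave an adjusted p of 0.00126, and the fitted fold change is left out because it depends on the prior count. A second GDSL gene, 7Ag0000820 (match At5g45910), went from 79.6, 198 and 161 CPM to 0.0475, 0 and 0.153 CPM in AC Morgan, and from 40.4, 126 and 0.533 CPM to 0 in CDC Morrison, a fall of at least 1406-fold in the latter (adjusted p 0.00126).

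Non-specific lipid-transfer proteins, small secreted proteins that bind lipids, included a pair with the same course. The gene 4Ag0000592 (lipid-transfer protein 2A) was at 70.2, 189 and 175 CPM in AC Morgan and 81.7, 111 and 3.24 CPM in CDC Morrison at 20 DPE. At 25 DPE it was at 0.142, 0.127 and 1.16 CPM and at 0.125, 0.0748 and 0 CPM, and its change was -8.64 ± 0.93 (SE, log2 scale, adjusted p 0.00126). A second 2A gene, 4Dg0000949, fell by 8.14 ± 0.91 on the same scale, and 4Dg0003184, a match to the lipid-transfer protein DIR1 of systemic immunity in Arabidopsis, fell by 4.18 ± 0.47. Levels of the 2A genes were low at 25 DPE, so the sizes of their fitted changes depend on the prior count. In both GDSL genes and both lipid-transfer protein 2A genes, replicate 3 of CDC Morrison was the lowest library at 20 DPE (2.88 CPM for 4Dg0000949).

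The remaining genes among the 10 lower ones with the smallest p were 3 histone genes, an arabinofuranosidase and a regulator with PH and FYVE domains. Chitinase 1 gene 3Ag0000508, which fell but is outside these 10, was almost confined to AC Morgan. It was there at 26.3, 46 and 14 CPM at 20 DPE, against 1.47, 2.15 and 0.95 CPM 5 days later. In CDC Morrison it was at 0.132, 0 and 0.178 CPM and then at 0 in all 3 libraries, so its change of -4.25 ± 0.46 on the log2 scale rests on AC Morgan. The alpha-L-arabinofuranosidase 1 gene 4Dg0000907, whose enzyme takes arabinose off arabinoxylan side chains, was at 83.7, 110.4 and 95.6 CPM in AC Morgan and 78.2, 78.9 and 41.6 CPM in CDC Morrison at 20 DPE. At 25 DPE the 6 libraries lay between 16.4 and 30.9 CPM, below all 6 at 20 DPE, with a change of -1.74 ± 0.19 (adjusted p 0.00126). The gene 5Dg0003453 (PH, RCC1 and FYVE domains) fell by 1.48 ± 0.15, from 5.86 to 6.79 CPM in AC Morgan and 2.94 to 3.7 CPM in CDC Morrison to 1.12 to 2.27 CPM over both.

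The 10 higher genes with the smallest p rose from low levels and had mixed roles. Lipid droplet phospholipase 1 gene 7Ag0000806 was at 1.91, 2.26 and 1.8 CPM in AC Morgan and 1.93, 2.27 and 3.59 CPM in CDC Morrison at 20 DPE. Its later levels were 10.1, 8.36 and 5.82 CPM and 9.78, 11.1 and 14.3 CPM, a change of 2.09 ± 0.19 (SE, log2 scale, adjusted p 0.00126). The enzyme's name describes a phospholipase on the surface of oil droplets. Chitinase 1 gene 1Dg0001100, whose enzyme cuts the chitin of fungal walls, was at 0, 0.0838 and 0.306 CPM in AC Morgan and 0.439, 0 and 0.284 CPM in CDC Morrison at 20 DPE. It reached 4.18, 3.17 and 1.72 CPM and 10.4, 6.17 and 20.4 CPM at 25 DPE, a change of 5.19 ± 0.60. This gene and 3Ag0000508, which share a protein name, moved in opposite directions.

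Thaumatin-like protein gene 3Cg0000445, of a family of pathogenesis-related proteins, rose in AC Morgan from 0.478, 0.586 and 0.88 CPM to 5.51, 6.13 and 9.86 CPM. In CDC Morrison it went from 0.308, 0.0811 and 0.249 CPM to 1.09, 1.35 and 1.59 CPM (blocked change 3.14 ± 0.30 on the log2 scale). The NPR1 gene 3Dg0000297, a match to the salicylic acid receptor and coactivator of immunity, rose by 1.46 ± 0.15, from 2.72 to 4.27 CPM over the 6 libraries to 8.07 to 11.9 CPM. The mitochondrial benzaldehyde dehydrogenase gene 7Ag0000770 was higher in CDC Morrison at each time, at 6.11, 6.33 and 16.5 CPM and then 38.3, 29.2 and 47.6 CPM. In AC Morgan it went from 2.79, 2.22 and 2.76 CPM to 20.0, 15.8 and 13.7 CPM, a blocked change of 2.31 ± 0.27. Cytochrome P450 81Q32 gene Ung0000290 rose by 5.41 ± 0.62 from at most 0.115 CPM in any 20 DPE library to 2.23, 2.37 and 7.47 CPM in AC Morgan and 0.125, 0.598 and 0.67 CPM in CDC Morrison. The other 4 rose by 1.39 ± 0.16 to 2.66 ± 0.29: they match the RNA-binding YTH protein ECT4 (4Ag0002309), which binds methylated adenosine, the galactosyltransferase gmh3 of fission yeast (6Ag0002651), the glutamate carboxypeptidase LAMP1 (3Dg0001746) and the mitochondrial adrenodoxin-like protein 2 (7Dg0000038).

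**Figure D2:**
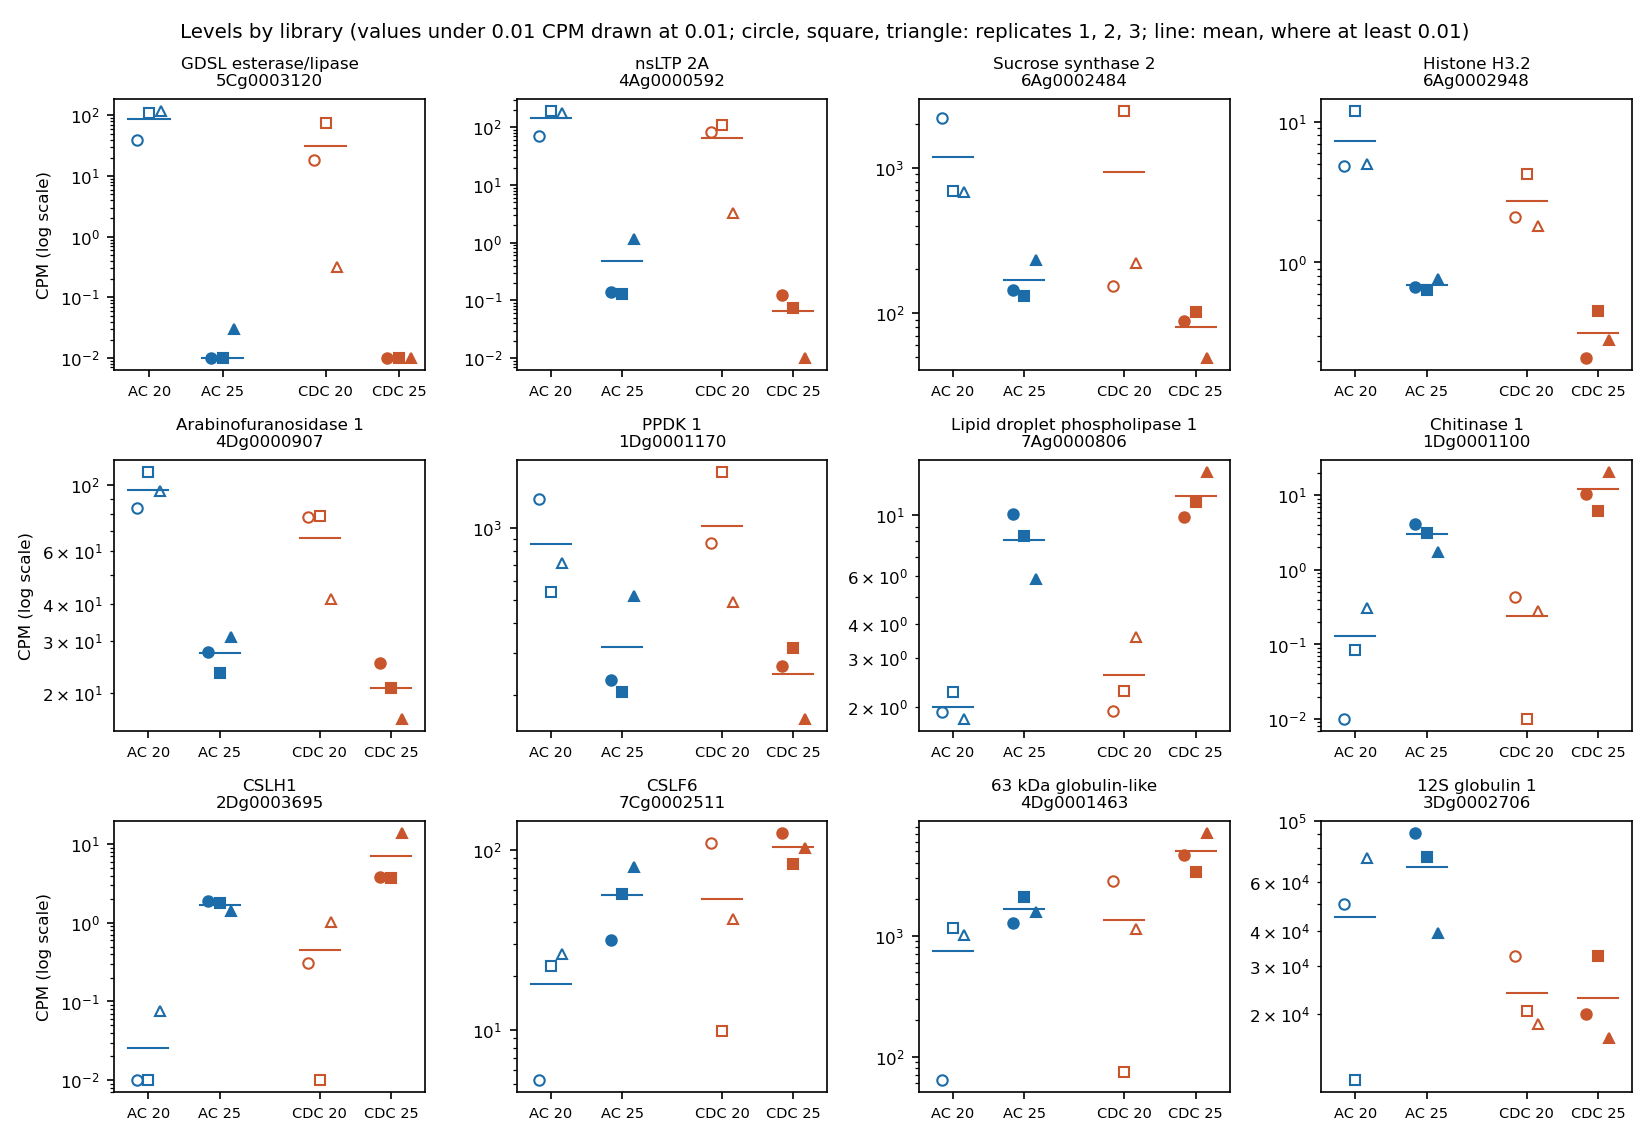
Levels in CPM (log axes) of 12 genes in each library, with open symbols for 20 DPE and filled symbols for 25 DPE in AC Morgan and CDC Morrison. The GDSL gene 5Cg0003120 lies between 0.32 and 117 CPM at 20 DPE and at or under 0.0306 CPM at 25 DPE, while the libraries of the 12S globulin 1 gene 3Dg0002706 overlap between the times.

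Most genes for core histones fell. Of 150 tested genes for core histones, the proteins that wrap DNA and are made mostly while DNA is copied, 123 were lower at 25 DPE and 1 was higher, against 8.33% lower and 7.42% higher over all genes. The median change was -2.17 on the log2 scale, with -2.45 in AC Morgan and -1.74 in CDC Morrison, and in 109 of them the libraries at 25 DPE lay below those at 20 DPE in each cultivar. Without the pair, 112 were lower. The histone H3.2 gene 6Ag0002948 went from 4.82, 11.9 and 5.05 CPM to 0.665, 0.634 and 0.766 CPM in AC Morgan and from 2.11, 4.26 and 1.81 CPM to 0.209, 0.449 and 0.282 CPM in CDC Morrison (change -3.26 ± 0.32, adjusted p 0.00126). Every 25 DPE library was below every 20 DPE library of both cultivars. The H3.2 gene with the most counts, 1Dg0001585, fell by 2.67 ± 0.45 and the H2A gene with the most, 6Ag0000123 (H2A.1), by 2.69 ± 0.40. The H3.2 gene 1Ag0001872 and the H2A gene 1Dg0002291 fell by 3.56 ± 0.38 and 3.47 ± 0.39.

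A histone variant that is laid down outside DNA replication moved less. The H3.3 gene 2Ag0001272 was at 61.2, 92.9 and 61.9 CPM in AC Morgan and 64.5, 85.3 and 63.5 CPM in CDC Morrison at 20 DPE, and the 6 libraries at 25 DPE lay from 46.2 to 50.7 CPM. Its change was -0.53 ± 0.14 (adjusted p 0.0236). With single libraries left out, 5 values of the adjusted p were above 0.05, up to 0.0642 without replicate 3 of CDC Morrison at 25 DPE. The single histone gene that rose was 6Cg0000158, an H2B.2 gene, by 1.22 ± 0.26, from 2.09 to 5.32 CPM to 4.53 to 9.97 CPM. Its libraries overlapped between the times when cultivars are not kept apart.

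The machinery that copies and parts chromosomes fell less steeply and with more exceptions. Of 101 DNA replication genes 44 fell and 2 rose (31 and 0 without the pair), of 94 cyclins and cell cycle kinases 33 fell and 5 rose (26 and 2), and of 190 kinesins, motors that move along microtubules, 73 fell and 3 rose (35 and 2). Their median changes were -0.65, -0.42 and -0.53 on the log2 scale. MCM2 gene 4Cg0002472, a subunit of the helicase that opens replication origins, was at 73.3, 33.2 and 49.2 CPM in AC Morgan and 30.7, 105 and 44.7 CPM in CDC Morrison at 20 DPE, and at 13 to 21.9 CPM in the 6 libraries at 25 DPE (change -1.80 ± 0.29, adjusted p 0.00304). The pair of libraries that stood apart were the highest of their groups, and without them its change was -1.30 (adjusted p 0.00499). Cyclin-B1-1 gene 4Ag0002831, a mitotic cyclin, fell by 2.77 ± 0.31 from 1.63 to 5.33 CPM to 0.293 to 0.766 CPM. Kinesin KIN-10A gene 6Ag0002017 fell by 3.03 ± 0.40 and DNA topoisomerase 2 gene 1Dg0002855, whose enzyme untangles chromosomes, by 2.12 ± 0.41.

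Few members of these groups rose. Cyclin-B1-5 gene 1Ag0002862 went from 1.87, 2.22 and 1.84 CPM to 5.6, 4.27 and 2.51 CPM in AC Morgan and from 1.23, 1.26 and 1.46 CPM to 3.3, 3.63 and 5.01 CPM in CDC Morrison (change 1.32 ± 0.22, adjusted p 0.0033). The times did not overlap. Among 45 tubulin genes, which encode the subunits of microtubules, 23 fell and 4 rose (10 and 3 without the pair), and under scaling by library size alone 9 fell and 5 rose. All 8 genes named tubulin alpha-1 chain fell. The one with the most counts, 7Cg0000920, went from 335 to 403 CPM to 239.6 to 263 CPM in AC Morgan and from 280 to 423 CPM to 246 to 262 CPM in CDC Morrison. Its change was -0.48 ± 0.15 (adjusted p 0.0444, and 0.136 without the pair). The adjusted p was above 0.05 in 10 of 12 fits that left out 1 library, up to 0.106 without replicate 1 of AC Morgan at 25 DPE. The beta chain gene 4Ag0002828 rose by 0.77 ± 0.13, from 43.5 to 68.9 CPM to 78.6 to 106 CPM.

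**Figure D3:**
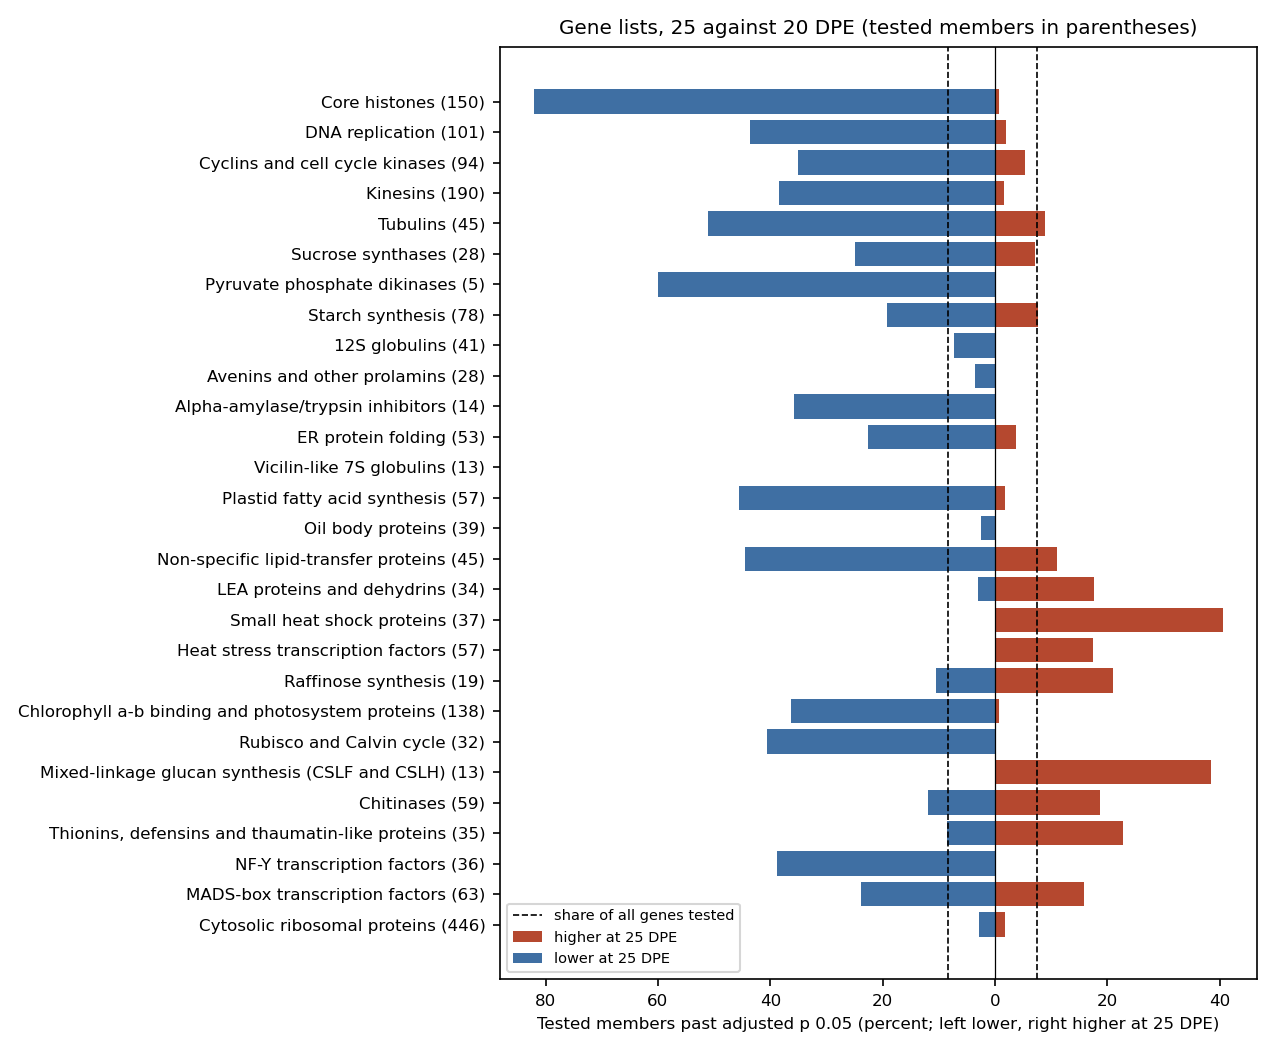
Percent of tested members of 28 gene lists that were lower (bars to the left) or higher (bars to the right) at 25 than at 20 DPE, with the number of tested members in parentheses and the shares of all 57999 genes tested, 8.33 and 7.42%, as dashed lines. The longest bars are those of the core histones to the left and of the small heat shock proteins and mixed-linkage glucan synthesis to the right.

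Sucrose synthases cleave the sucrose that reaches the endosperm, and their summed share of the counts fell in each cultivar, from 0.751, 0.324 and 0.276% to 0.136, 0.137 and 0.197% in AC Morgan and from 0.165, 0.963 and 0.177% to 0.12, 0.147 and 0.0695% in CDC Morrison. Of 28 genes 7 fell and 2 rose (5 and 1 without the pair). Sucrose synthase 2 gene 6Ag0002484 was at 2180, 689 and 683 CPM in AC Morgan and 154, 2445 and 222 CPM in CDC Morrison at 20 DPE. It then stood at 145, 131 and 233 CPM and at 88.8, 102 and 49.0 CPM. The libraries that stood apart held the 2 highest values, and the change was -3.18 ± 0.64 with them and -1.64 without (adjusted p 0.0072 and 0.00611). Sucrose synthase 1 gene 5Dg0000534 fell by 2.09 ± 0.48 (adjusted p 0.0127, and 0.0346 without the pair). The sucrose synthase 1 gene 7Ag0001008 had a change of -1.30 ± 0.37 (adjusted p 0.0328), which was -0.65 (adjusted p 0.163) without the pair. Its adjusted p was above 0.05 in 7 of 12 fits that left out 1 library, up to 0.0868 without replicate 2 of CDC Morrison at 20 DPE. The sucrose synthase 4 gene 4Cg0003014 rose by 1.48 ± 0.34, from 2.31 to 4.25 CPM to 12 to 14.8 CPM in AC Morgan, with 9.18, 2.76 and 12.4 CPM against 13.5, 12.3 and 17.8 CPM in CDC Morrison.

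Genes for starch synthesis were split, and the split depended on scaling. Of 78 tested, 15 fell and 6 rose, with a median change of -0.33. Without the pair 3 fell and 2 rose, and with scaling by library size alone 7 fell and 9 rose. Leaving out 1 library gave 4 (without replicate 1 of AC Morgan at 25 DPE) to 22 (without replicate 2 of AC Morgan at 20 DPE) lower. Granule-bound starch synthase 1, which makes amylose, had 3 genes. 7Ag0000686 was at 416, 426 and 394 CPM in AC Morgan and 317, 381 and 297 CPM in CDC Morrison at 20 DPE, and at 136, 217 and 306 CPM and 228, 199 and 74.7 CPM at 25 DPE. The 2 times did not overlap in either cultivar, and the change was -0.95 ± 0.26 (adjusted p 0.0279, 0.0772 without the pair, and up to 0.0709 without replicate 1 of AC Morgan at 25 DPE). The other 2, 5Cg0003329 and 7Dg0003458, had changes of -0.57 ± 0.24 and -0.69 ± 0.25 that did not pass the test (adjusted p 0.116 and 0.078). BT1 gene 6Cg0002098, the carrier that brings ADP-glucose into the amyloplast in cereal endosperm, fell by 1.67 ± 0.34, from 16.4 to 114 CPM to 7.76 to 36.2 CPM. The debranching enzyme isoamylase 3 gene 5Cg0002303 rose by 1.04 ± 0.21, from 8.88 to 22.1 CPM to 20.9 to 36.3 CPM. It is in this list by its protein name alone, and whether it acts in synthesis or breakdown of starch was not tested.

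Pyruvate phosphate dikinase (PPDK), which links pyruvate and phosphoenolpyruvate in filling endosperm, had 5 tested genes, of which 3 fell and none rose (2 without the pair). PPDK 1 gene 1Dg0001170 was at 1316, 539 and 715 CPM in AC Morgan and 868, 1708 and 490 CPM in CDC Morrison at 20 DPE, and at 232, 207 and 518 CPM and 266, 314 and 159 CPM at 25 DPE. No 25 DPE library reached a 20 DPE library of its cultivar, and the change was -1.74 ± 0.37 (adjusted p 0.00909). The other 2 that fell were 1Cg0001848 (-1.71 ± 0.40) and 1Ag0001164 (-1.33 ± 0.33, adjusted p 0.0189, and 0.0501 without replicate 2 of AC Morgan at 25 DPE). Among 42 sugar transporters of the SUT and SWEET families 7 fell and 3 rose (5 and 2 without the pair), and 2 sucrose carriers crossed. SUT1 gene 4Cg0001270 fell by 1.19 ± 0.22, from 36.0 to 116 CPM to 24.6 to 40.7 CPM. SUC3 gene 5Dg0001432 rose by 1.33 ± 0.19, from 26.7 to 58.6 CPM to 64.6 to 109.9 CPM, with every 25 DPE library above all those at 20 DPE. Among 55 starch breakdown genes 10 fell and 7 rose (10 and 4 without the pair), and the alpha-glucosidase 2 gene 5Dg0000717 fell by 1.67 ± 0.34.

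The main storage proteins changed little in their share of the counts. The 12S globulins took 32.4% ± 9.24 (SD, n = 3) of the counts of AC Morgan at 20 DPE and 32.2% ± 7.56 at 25 DPE, and 28.6% ± 3.51 and 25.9% ± 5.27 in CDC Morrison. Of 41 tested genes 3 fell and none rose (2 and 0 without the pair). The gene with the most counts, 3Dg0002706, was at 50007, 11547 and 73780 CPM in AC Morgan at 20 DPE, against 90343, 74116 and 39466 CPM at 25 DPE. In CDC Morrison it was at 32456, 20494 and 18430 CPM and at 19978, 32505 and 16453 CPM, with a change of 0.27 ± 0.44 (adjusted p 0.718). One of the 3, 2Ag0001204, fell by 1.82 ± 0.38 (adjusted p 0.00837), from 1219 to 3211 CPM to 657 to 807 CPM in AC Morgan and from 556 to 2998 CPM to 296 to 652 CPM in CDC Morrison. The shares of avenins and other prolamins were 10.9% ± 2.43 and 10.7% ± 0.804 in AC Morgan and 10.8% ± 1.61 and 10.7% ± 1.55 in CDC Morrison, and 1 of 28 genes fell. The avenin-3 gene 1Dg0002263 lay between 11610 and 22816 CPM in the 12 libraries, with a change of -0.11 ± 0.25 (adjusted p 0.809).

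The single prolamin that fell was 1Ag0003169, a match to the high molecular weight glutenin subunit DY10 of wheat. It was at 3826, 5707 and 4438 CPM in AC Morgan at 20 DPE, against 1810, 2043 and 2318 CPM at 25 DPE. In CDC Morrison, where its level was lower at each time, it went from 524, 397 and 364 CPM to 240, 309 and 242 CPM, and the blocked change was -0.94 ± 0.21 (adjusted p 0.0108). The times did not overlap in either cultivar. Without the pair 3 prolamins were lower.

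Smaller storage and defence proteins of the endosperm were lower in part. Among 14 alpha-amylase/trypsin inhibitors, which block digestive enzymes of insects, 5 fell and none rose (3 without the pair). CM2 gene 4Cg0001049 was at 771, 350 and 298 CPM in AC Morgan and 107, 838 and 123 CPM in CDC Morrison at 20 DPE, and at 57.4, 75.7 and 137 CPM and 45.7, 63.5 and 11.6 CPM at 25 DPE. It fell by 2.77 ± 0.58 (adjusted p 0.0083), and by 1.68 without the pair, whose libraries were the highest of their groups. The CMb gene 4Ag0002472 fell by 1.42 ± 0.38 (adjusted p 0.0252, 0.11 without the pair, and up to 0.0647 without replicate 1 of AC Morgan at 25 DPE). Of 9 puroindoline-like proteins, which bind lipids at the surface of starch granules, 2 fell and none rose (1 and 0 without the pair). Puroindoline-B gene 7Cg0003030 went from 1305, 2118 and 1539 CPM to 812, 794 and 1110 CPM in AC Morgan and from 2582, 2098 and 2384 CPM to 1182, 1060 and 519 CPM in CDC Morrison (change -1.11 ± 0.25, adjusted p 0.0108). The other, 7Cg0003032, had a change of -0.77 ± 0.23 (adjusted p 0.037, and up to 0.0904 without replicate 1 of AC Morgan at 25 DPE). Of 53 genes for protein folding in the endoplasmic reticulum 12 fell and 2 rose (6 and 2 without the pair), with the protein disulfide isomerase-like 1-4 gene 4Cg0002749 falling by 1.70 ± 0.28. The disulfide isomerase gene with the most counts, 7Cg0001603, had a change of -1.0 ± 0.26 (adjusted p 0.0201, and 0.0762 without the pair).

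The 13 vicilin-like globulins all had positive changes, with a median of 1.11 on the log2 scale, yet none passed the test, with or without the pair. Their summed share was 0.0787, 0.902 and 0.615% and then 0.832, 1.3 and 1.24% in AC Morgan, and 1.75, 0.121 and 1.08% and then 2.7, 2.02 and 4.07% in CDC Morrison. The 63 kDa globulin-like gene 4Dg0001463 was at 63.8, 1150 and 1010 CPM in AC Morgan and 2828, 74.8 and 1140 CPM in CDC Morrison at 20 DPE. The later libraries were at 1285, 2098 and 1577 CPM and at 4679, 3387 and 7071 CPM. The times did not overlap in either cultivar, but 2 of the 6 libraries at 20 DPE were more than 10 times below the rest of their groups, and the change was 1.53 ± 0.71 (adjusted p 0.157) with them and 0.97 (adjusted p 0.0818) without. The gene 4Ag0001105 of the same name had a change of 1.36 ± 0.66 (adjusted p 0.174), and the vicilin-like cupincin gene 4Ag0001758 one of 1.11 ± 0.57 (adjusted p 0.199).

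Genes that make fatty acids in the plastid fell in part. Of 57 tested 26 fell and 1 rose, with a median change of -0.84, and without the pair 22 fell and 1 rose. The acetyl-CoA carboxylase 2 gene 6Ag0003033, which matches the enzyme of the first committed step, was at 848, 229 and 471 CPM in AC Morgan and 241, 1190 and 350 CPM in CDC Morrison at 20 DPE. It was at 101, 111 and 284 CPM and at 73.0, 138 and 84.0 CPM at 25 DPE. It fell by 2.12 ± 0.47 (adjusted p 0.0111), and by 1.34 without the pair (adjusted p 0.0299), whose libraries were again the highest of their groups. A second gene of that name, 5Dg0003130, fell by 1.75 ± 0.41. The 3-oxoacyl-ACP synthase II gene 5Ag0000948, an enzyme of chain elongation, fell by 0.96 ± 0.17, from 10.6 to 20.4 CPM to 6.28 to 9.27 CPM, with no overlap between the times. The stearoyl-ACP desaturase gene 4Dg0002951 had a change of -0.57 ± 0.20 that did not pass (adjusted p 0.0689).

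Of 39 oil body proteins, which coat the droplets, 1 fell and none rose over 12 libraries, and 6 rose and 1 fell without the pair. Of 15 diacylglycerol acyltransferases, which join the last fatty acid to make oil, 3 rose and none fell (1 and 0 without the pair). The share that rose was 20.0%, against 7.42% of all genes. 1Cg0000564 went from 0.836, 1.05 and 1.38 CPM to 2.61, 2.03 and 2.05 CPM in AC Morgan and from 4.39, 4.74 and 4.55 CPM to 6.73, 6.77 and 7.34 CPM in CDC Morrison. Each time was tight within each cultivar, and the change was 0.80 ± 0.16 (adjusted p 0.00709). Of 38 lipoxygenases, which oxidise linoleic acid, 7 fell and none rose (4 and 0 without the pair). Among those that fell was 7Cg0001065, the one with the most counts (change -1.26 ± 0.29).

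The non-specific lipid-transfer proteins split into a larger part that fell and a smaller part that rose. Of 45 tested, 20 fell and 5 rose (15 and 6 without the pair), and the median change was -1.06 with -1.52 in AC Morgan and -0.30 in CDC Morrison. Against this median, their summed share of the counts went from 0.126% ± 0.067 to 0.194% ± 0.0337 in AC Morgan and from 0.0895% ± 0.0144 to 0.435% ± 0.222 in CDC Morrison (SD, n = 3). The lipid-transfer protein 1 gene 5Dg0001491, first in counts, was at 1.43, 180.4 and 40.9 CPM in AC Morgan and 223, 0.73 and 231 CPM in CDC Morrison at 20 DPE. At 25 DPE it was at 747, 669.5 and 470 CPM and at 1282, 902 and 1886 CPM. The times were fully apart, and its change of 3.12 ± 1.00 (adjusted p 0.0495) became 2.54 with an adjusted p of 0.0054 without the pair, the 2 lowest libraries. The adjusted p was above 0.05 in 10 of 12 fits that left out 1 library, up to 0.0935 without replicate 3 of AC Morgan at 20 DPE. A gene of the same name on chromosome 5A, 5Ag0001921, had a change of 3.46 ± 1.13 (adjusted p 0.0528, and 0.0161 without the pair). The lipid-transfer protein 1 gene 5Cg0001457 rose by 4.88 ± 0.67 (adjusted p 0.00204) from at most 0.853 CPM to 1.68 to 24.5 CPM.

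Among LEA proteins, small heat shock proteins and heat stress transcription factors more members rose than fell, and most did not pass the test. Of 34 LEA proteins and dehydrins 6 rose and 1 fell, with a median change of 1.35. Without the pair, which was chosen in part by LEA shares, 9 rose and 1 fell with a median of 0.76. The LEA gene 3Ag0000998 (Lea5) went from 0.358, 1.05 and 0.804 CPM to 3.18, 4.39 and 2.51 CPM in AC Morgan and from 1.32, 0.243 and 1.81 CPM to 6.02, 5.83 and 7.94 CPM in CDC Morrison. The times were apart in each cultivar, and the change was 2.37 ± 0.37 (adjusted p 0.00269). Em proteins, the abundant LEA proteins of the mature embryo, did not pass the test. The Em gene 1Dg0000996 was at 0.0398, 6.37 and 29.5 CPM and then 101, 190 and 139 CPM in AC Morgan, and at 296, 0.122 and 337 CPM and then 490, 269 and 510 CPM in CDC Morrison (change 2.28 ± 1.20, adjusted p 0.216). Its 20 DPE libraries ran over more than 3 powers of 10 and overlapped those at 25 DPE in CDC Morrison. The Em gene 1Ag0001004 had a change of 2.15 ± 1.1 (adjusted p 0.2). The member that fell was the dehydrin COR410 gene 6Dg0000908, named for cold regulation in wheat, by 0.80 ± 0.17, from 44.3 to 87.7 CPM to 18.7 to 51.7 CPM.

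Small heat shock proteins, chaperones that hold unfolding proteins, had the highest share of risers among the 64 lists of genes that were counted. Of 37 tested, 15 rose and none fell (12 and 1 without the pair), with a median change of 0.93. The plastid gene 5Ag0000274 went from 11.1, 8.8 and 6.43 CPM to 17.5, 18.4 and 19.0 CPM in AC Morgan and from 12.4, 4.87 and 6.33 CPM to 42.2, 22.2 and 30.0 CPM in CDC Morrison (change 1.53 ± 0.27, adjusted p 0.00422). The member with the most counts went the other way in value: the 17.6 kDa class I gene 7Ag0001140 was at 45.5, 127 and 122 CPM and then 28.3, 43.9 and 59.5 CPM in AC Morgan, and at 236, 37.1 and 154 CPM and then 123, 74.9 and 76.3 CPM in CDC Morrison. Its change of -0.90 ± 0.39 did not pass over 12 libraries (adjusted p 0.131), and was -1.30 with an adjusted p of 0.00946 without the pair. Of 57 heat stress transcription factors, which switch on heat shock genes, 10 rose and none fell (9 and 0 without the pair). The A-1 factor gene 4Ag0002193 rose by 0.84 ± 0.13, from 10.5 to 15.2 CPM to 16.5 to 25.6 CPM, with no overlap, and 7Cg0000061 of the same name by 0.55 ± 0.13.

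Of 19 raffinose synthesis genes 4 rose and 2 fell, with or without the pair. The galactinol-sucrose galactosyltransferase 2 gene 1Dg0000812, whose enzyme makes raffinose, was at 15.2, 36.8 and 25.3 CPM in AC Morgan and 31.5, 8.72 and 41.5 CPM in CDC Morrison at 20 DPE. It was at 56.0, 78.4 and 46.4 CPM and at 190.5, 114 and 314 CPM at 25 DPE, above all libraries at 20 DPE, with a change of 2.07 ± 0.45 (adjusted p 0.00996). A gene of the same name on chromosome 1A, 1Ag0000825, rose by 1.97 ± 0.42. Genes of abscisic acid, the hormone of seed maturation and dormancy, changed seldom: of 23 for its synthesis and breakdown 1 rose and 1 fell, and of 29 for its signalling and for dormancy 1 rose and 1 fell. Those shares, 4.35% each way in the former list and 3.45% in the latter, lay below the 7.42 and 8.33% of all genes. The riser among the former, 9-cis-epoxycarotenoid dioxygenase NCED5 gene 7Cg0002995, makes the precursor and changed by 2.17 ± 0.61 (adjusted p 0.0301). Its adjusted p was above 0.05 in 5 of 12 fits that left out 1 library, up to 0.123 without replicate 3 of CDC Morrison at 25 DPE. The gene that fell, 1Ag0001035, encodes an abscisic acid 8'-hydroxylase, which breaks the hormone down, and fell by 2.26 ± 0.42. DOG1-like 3 gene 1Dg0002020, of the family of a dormancy regulator of Arabidopsis, changed by 2.0 ± 0.59 (adjusted p 0.0366, and up to 0.0826 without replicate 2 of AC Morgan at 25 DPE). The antioxidant 1-Cys peroxiredoxin PER1, a marker of aleurone and embryo, had none of 3 genes past the test. Of these, 6Ag0002618, with the most counts, had a change of 0.49 ± 0.48, and of 0.01 without the pair.

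Photosynthesis genes, which the pericarp of green grain expresses, fell in part. Of 138 tested genes for chlorophyll a-b binding and photosystem proteins 50 fell and 1 rose, with a median change of -1.19. Their calls leaned on single libraries: 27 to 32 fell without replicate 1 or 2 of AC Morgan at 20 DPE, replicate 2 or 3 of AC Morgan at 25 DPE, replicate 2 of CDC Morrison at 20 DPE or replicate 3 of CDC Morrison at 25 DPE. Without replicate 3 of CDC Morrison at 20 DPE 78 fell, and without the pair 18. Their summed share was 0.0621, 0.0774 and 0.0512% in AC Morgan at 20 DPE and 0.0329, 0.034 and 0.0248% at 25 DPE, while in CDC Morrison 0.0285, 0.0425 and 0.0125% met 0.0179, 0.0156 and 0.0116%, which overlap. The photosystem II 10 kDa gene 7Dg0001531 was at 21.6, 33.0 and 18.7 CPM and then 10.6, 10.6 and 9.93 CPM in AC Morgan, and at 17.0, 16.5 and 5.33 CPM and then 5.94, 5.57 and 3.14 CPM in CDC Morrison (change -1.32 ± 0.27, adjusted p 0.0073). The oxygen-evolving enhancer protein 1 gene 2Ag0000629 fell by 1.13 ± 0.26. Of 32 Rubisco and Calvin cycle genes 13 fell and none rose, and 1 fell without the pair, with 5 to 16 lower when 1 library was left out (5 without replicate 2 or 3 of AC Morgan or replicate 3 of CDC Morrison at 25 DPE). The Rubisco small subunit gene 4Dg0000136 had a change of -1.85 ± 0.43 (adjusted p 0.0142), and of -1.20 (adjusted p 0.0548) without the pair.

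Mixed-linkage glucan of the cell wall is made by cellulose synthase-like enzymes of the F and H families. Of their 13 tested genes, 5 rose and none fell (4 without the pair), with a median change of 1.25. CSLH1 gene 2Dg0003695 was at 0, 0 and 0.0765 CPM in AC Morgan and 0.308, 0 and 1.03 CPM in CDC Morrison at 20 DPE. At 25 DPE it was at 1.9, 1.77 and 1.41 CPM and at 3.8, 3.74 and 13.8 CPM, fully apart, with an adjusted p of 0.00269. In AC Morgan 2 counts at 20 DPE faced 128 at 25 DPE, a ratio of 62.1 with a 95% exact counting interval of 16.9 to 519. The CSLF6 genes, whose enzyme makes most of the glucan in barley, did not pass: 7Cg0002511, 7Dg0001419 and 7Ag0002427 had changes of 1.29 ± 0.50, 1.25 ± 0.49 and 1.25 ± 0.45 with adjusted p of 0.093, 0.0992 and 0.0736. In 7Cg0002511, CDC Morrison libraries at 109, 9.89 and 41.4 CPM at 20 DPE overlapped those at 124, 83.2 and 103 CPM at 25 DPE, while in AC Morgan 5.29, 22.6 and 26.6 CPM lay below 31.5, 56.9 and 80.7 CPM.

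Of 22 cellulose synthases 2 rose and none fell (1 and 0 without the pair), with a median change of -0.17. The share that rose, 9.09%, was near the 7.42% of all genes. Among the risers was 7Cg0000182 (subunit 5, change 0.59 ± 0.14). The subunit 1 gene 3Dg0002179, first in counts, had a change of -0.27 ± 0.19 (adjusted p 0.352). Of 55 expansins, which loosen walls during growth, 10 fell and 2 rose (11 and 1 without the pair). Expansin-B4 gene 1Dg0000866 fell by 1.07 ± 0.22, from 35.8 to 54.0 CPM to 17.9 to 26.6 CPM in AC Morgan and from 17.2 to 21.8 CPM to 4.27 to 12.1 CPM in CDC Morrison, with no overlap in either. Expansin-A2 gene 4Ag0002750 fell by 3.08 ± 0.55.

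Defence proteins moved in both directions. Of 59 chitinases 11 rose and 7 fell (8 and 8 without the pair). Chitinase 5 gene 6Ag0001847, first in counts, was at 4793, 8873 and 6816 CPM and then 1980, 3253 and 4615 CPM in AC Morgan, and at 7463, 4946 and 6039 CPM and then 4294, 3943 and 1894 CPM in CDC Morrison. The times did not overlap, and the change was -0.96 ± 0.29 (adjusted p 0.0417). The adjusted p was above 0.05 in 8 of 12 fits that left out 1 library, up to 0.102 without replicate 1 of AC Morgan at 25 DPE. The 26 kDa endochitinase 1 gene 3Ag0001915 was at 11.5, 785 and 232 CPM and then 846, 1343 and 1344 CPM in AC Morgan, and at 978, 6.24 and 941 CPM and then 3499, 2007 and 4215 CPM in CDC Morrison. All libraries at 25 DPE were above those at 20 DPE of their cultivar, but the change of 2.06 ± 0.90 did not pass (adjusted p 0.136). It was 1.48 with an adjusted p of 0.0266 without the pair, the lowest libraries of their groups. Of 35 thionins, defensins and thaumatin-like proteins 8 rose and 3 fell (6 and 4 without the pair). The defensin-like protein 1 gene 7Cg0002023 had a change of 1.66 ± 0.73 (adjusted p 0.14, and 0.024 without the pair).

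Among transcription factors, 14 of 36 subunits of NF-Y, which binds CCAAT boxes, fell and none rose (9 without the pair, 8 with scaling by library size alone). NF-Y subunit C-2 gene 7Ag0002806 fell by 1.09 ± 0.18, from 41.1, 32.5 and 34.3 CPM to 15.5, 17.7 and 25.2 CPM in AC Morgan and from 37.9, 48.0 and 37.7 CPM to 18.4, 20.6 and 11.3 CPM in CDC Morrison. No 25 DPE library reached any 20 DPE library. MADS-box factors changed in both directions, with 15 of 63 lower and 10 higher (10 and 9 without the pair). MADS-box 6 gene 6Cg0003176 fell by 2.90 ± 0.38, from 15.4, 17.7 and 17.4 CPM to 1.19, 1.14 and 3.83 CPM in AC Morgan and from 5.27, 15.0 and 4.3 CPM to 1.42, 1.53 and 0.635 CPM in CDC Morrison. MADS-box 7 gene 7Ag0001637, first in counts, fell by 1.15 ± 0.25. The riser MADS-box 27 gene 6Dg0001266 went from 2.35, 3.14 and 3.14 CPM to 24.6, 27.3 and 14.3 CPM in AC Morgan and from 11.2, 1.26 and 11.7 CPM to 18.5, 18.9 and 22.4 CPM in CDC Morrison (change 2.10 ± 0.45, adjusted p 0.00995), and MADS-box 57 gene 6Ag0000940 rose by 1.53 ± 0.25. None of 38 Dof factors passed, with or without the pair, while 5 of 53 bZIP factors rose and 7 fell (1 and 5 without the pair). Of 123 NAC factors 5 rose and 11 fell (4 and 8 without the pair), with 2 lower without replicate 2 of AC Morgan at 25 DPE, the fewest when 1 library was left out. Of 123 MYB factors 12 rose and 8 fell (3 and 1 without the pair), with 1 lower without replicate 2 of CDC Morrison at 20 DPE alone. The shares that rose and fell were 9.43 and 13.2% for bZIP, 4.07 and 8.94% for NAC and 9.76 and 6.5% for MYB factors. Over all genes they were 7.42 and 8.33%, so these lists lay near or below background in most of these shares.

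Genes for protein synthesis seldom passed the test. Of 446 cytosolic ribosomal protein genes 8 rose and 13 fell (5 and 4 without the pair), below both background shares, and with scaling by library size alone 11 rose and 2 fell. Of 66 aquaporins, water channels, 15 fell and 1 rose (13 and 2 without the pair). Of 76 cysteine and vacuolar-processing proteases 24 fell and 5 rose (14 and 6 without the pair), with 13 lower without replicate 1 of AC Morgan or replicate 3 of CDC Morrison at 25 DPE. Of 122 serine carboxypeptidases 28 fell and 5 rose (16 and 3 without the pair), with 18 lower without replicate 1 or 2 of AC Morgan at 25 DPE or replicate 2 of CDC Morrison at 20 DPE. Of 34 metacaspases and S1-type endonucleases, which take part in cell death, 7 fell and 1 rose (4 and 0 without the pair). The endonuclease 2 gene 1Cg0000479 fell by 2.87 ± 0.40, from 26.7, 24.0 and 12.6 CPM to 2.23, 2.37 and 3.58 CPM in AC Morgan and from 5.58, 20.5 and 3.2 CPM to 1.55, 0.972 and 1.66 CPM in CDC Morrison. In 15 further lists, among them serpins, xylan synthesis, amino acid permeases, autophagy proteins and WRKY factors, 0 to 15.8% of tested members rose and 0 to 15.5% fell, with median changes from -0.32 to 0.27. Of 19 genes of fermentation and low oxygen 3 rose and 1 fell (1 and 1 without the pair). The alcohol dehydrogenase 1 gene 4Ag0000789 rose by 1.12 ± 0.23, from 56.2 to 147 CPM to 146 to 269 CPM. Of 50 genes for glutamine and asparagine synthesis 5 rose (10.0%) and 7 fell (14.0%), against 7.42 and 8.33% of all genes (3 and 3 without the pair). The cytosolic glutamine synthetase gene 5Dg0003097 rose by 2.25 ± 0.40, from 1.39, 2.39 and 1.61 CPM to 12.8, 13.5 and 8.67 CPM in AC Morgan and from 4.7, 1.01 and 8.46 CPM to 14.1, 11.7 and 25.5 CPM in CDC Morrison.

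When genes were grouped by identical protein name, 922 names were shared by at least 8 tested genes, and in 16 of them at least 75% of the tested genes changed one way. Of these 16 names 12 were lower and 4 higher. Of the lower ones, 5 were histone names, led by H2A.1 with all 15 genes lower and H3.2 with 27 of 28. The others were tubulin alpha-1 chain, DNA topoisomerase 2 (6 of 8), the chromatin protein HMG-Y-related A (6 of 8), the ubiquitin ligase ORTHRUS 2 (8 of 9), aldehyde dehydrogenase family 3 member F1 (8 of 9), the IAA-amino acid hydrolase ILR1-like 1 (9 of 10), which frees auxin from its conjugates, and a 36.4 kDa proline-rich protein (6 of 8, median change -3.36). The higher ones were the mitochondrial chaperonin CPN60-1 (6 of 8), La-related protein 6B (7 of 9), DJ-1 homolog B (7 of 8) and MADS-box 27 (6 of 8, median change 1.78).

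Within single cultivars the counts differed. In a fit of the 4 groups of cultivar and time, AC Morgan had 2067 genes higher (3.56%) and 1863 lower (3.21%) at 25 DPE by edgeR's quasi-likelihood test, and CDC Morrison had 6 higher (0.0103%) and 0 lower (0.00%), with 4776 genes higher and 5835 lower at an unadjusted p under 0.05. Of the 3930 genes called in AC Morgan 3263 were also called with both cultivars. The CDC Morrison count rose to 270 without its replicate 3 at 20 DPE, and was at most 13 without any other library. The AC Morgan count was 988 and 2287 without its replicates 2 and 3 at 20 DPE, 188 and 372 without its replicates 1 and 2 at 25 DPE, and 6415 without replicate 2 of CDC Morrison at 20 DPE. Without the pair 27 genes were called in CDC Morrison. With a replicate block, 337 genes were higher and 435 lower in CDC Morrison, where libraries of the same number deviated together, and 2263 higher and 2382 lower in AC Morgan. These counts do not show that the cultivars differ. The test of the difference between their changes called 1 gene (0.00172%), with 3835 at an unadjusted p under 0.05. It was 93 by DESeq2, 1 by limma, and in edgeR 74 without the pair, 0 with a replicate block, 0 with library size alone and 0 in 7 of 12 fits that left out 1 library. The gene called, 3Ag0002054 (GDSL esterase/lipase At5g45670), was at 12.6, 17.0 and 11.6 CPM at 20 DPE in AC Morgan and fell there to 0, 0.169 and 0.153 CPM, and at 1.05, 4.54 and 2.81 CPM and 3.01, 3.14 and 4.87 CPM in CDC Morrison. It was lower at 25 DPE in AC Morgan and overlapped between the times in CDC Morrison.

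The 8 time points of the study place the step from 20 to 25 DPE. Levels here are CPM scaled over 47 libraries of developing grain, without replicate 1 of CDC Morrison at 10 DPE, and given as means of a group with no test. No value of the library left out is given here, so its exclusion cannot be judged, and CDC Morrison means at 10 DPE are of 2 libraries. The GDSL gene 5Cg0003120 was at or under 0.008 CPM at 5 and 10 DPE in AC Morgan, at 76.1 and 117 CPM at 15 and 20 DPE and at or under 0.0137 CPM from 25 DPE on. In CDC Morrison it was at 1.35 CPM at 10 DPE, 129 and 41.0 CPM at 15 and 20 DPE and at or under 0.0354 CPM later. The lipid-transfer protein gene 4Ag0000592 had the same course, with 119 and 192 CPM at 15 and 20 DPE in AC Morgan and 62.4, 239 and 85.9 CPM at 10, 15 and 20 DPE in CDC Morrison. The group means of both genes were thus above 1 CPM only at 15 and 20 DPE in AC Morgan and only at 10, 15 and 20 DPE in CDC Morrison.

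Genes that had risen by 25 DPE took different courses afterwards. The lipid droplet phospholipase gene 7Ag0000806 had means of 2.63, 10.8, 25.6 and 37.0 CPM at 20, 25, 30 and 35 DPE in AC Morgan and 3.45, 15.5, 35.5 and 33.0 CPM in CDC Morrison. Chitinase 1 gene 1Dg0001100 had 2 phases, with 20.1 and 18.1 CPM at 5 DPE, at or under 0.322 CPM at 15 and 20 DPE, and 171 and 159 CPM at 35 DPE in AC Morgan and CDC Morrison. CSLH1 gene 2Dg0003695 likewise was at 8.02 and 7.94 CPM at 5 DPE, 0.0335 and 0.599 CPM at 20 DPE, and by 35 DPE at 67.6 and 131 CPM. The plastid small heat shock protein gene 5Ag0000274, in contrast, went from 11.6 and 10.4 CPM at 20 DPE to 24.5 and 41.8 CPM at 25 DPE and stood at 6.6 and 10.7 CPM at 35 DPE. Sucrose synthase 2 gene 6Ag0002484 had its highest means at 15 DPE, 2281 ± 598 and 1797 ± 868 CPM (SD, n = 3). These lay within the spread at 20 DPE, where the means were 1555 ± 1113 and 1229 ± 1694 CPM. By 35 DPE the gene was at 2.74 and 0.749 CPM.

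Summed over lists, 12S globulins stood at 340091 ± 66796, 470730 ± 166210 and 427301 ± 134640 CPM (SD, n = 3) at 15, 20 and 25 DPE in AC Morgan and at 158956 ± 5409 CPM at 30 DPE. In CDC Morrison the sums were 693507 ± 59401, 386981 ± 89271 and 328701 ± 105048 CPM at 15, 20 and 25 DPE and 24867 ± 23680.5 CPM at 30 DPE. The mean sum was thus lower at 30 than at 25 DPE in each cultivar, and in CDC Morrison also lower at 20 than at 15 DPE. Being scaled over 47 libraries, these sums are not shares of the counts. The shares at 20 and 25 DPE were 32.4 and 32.2% in AC Morgan and 28.6 and 25.9% in CDC Morrison. LEA RNA went from 1042 to 2376 CPM between 20 and 25 DPE in AC Morgan and on to 7073 CPM at 40 DPE, and from 2231 to 3995 CPM in CDC Morrison and on to 9425 CPM at 35 DPE. Core histone RNA, with replicate 2 the highest library at 20 DPE, was at 2593 CPM at 20 DPE and 860 CPM at 25 DPE in AC Morgan, then between 698 and 957 CPM. In CDC Morrison it was at 1492 and 981 CPM and then between 839 and 1022 CPM.

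**Figure D4:**
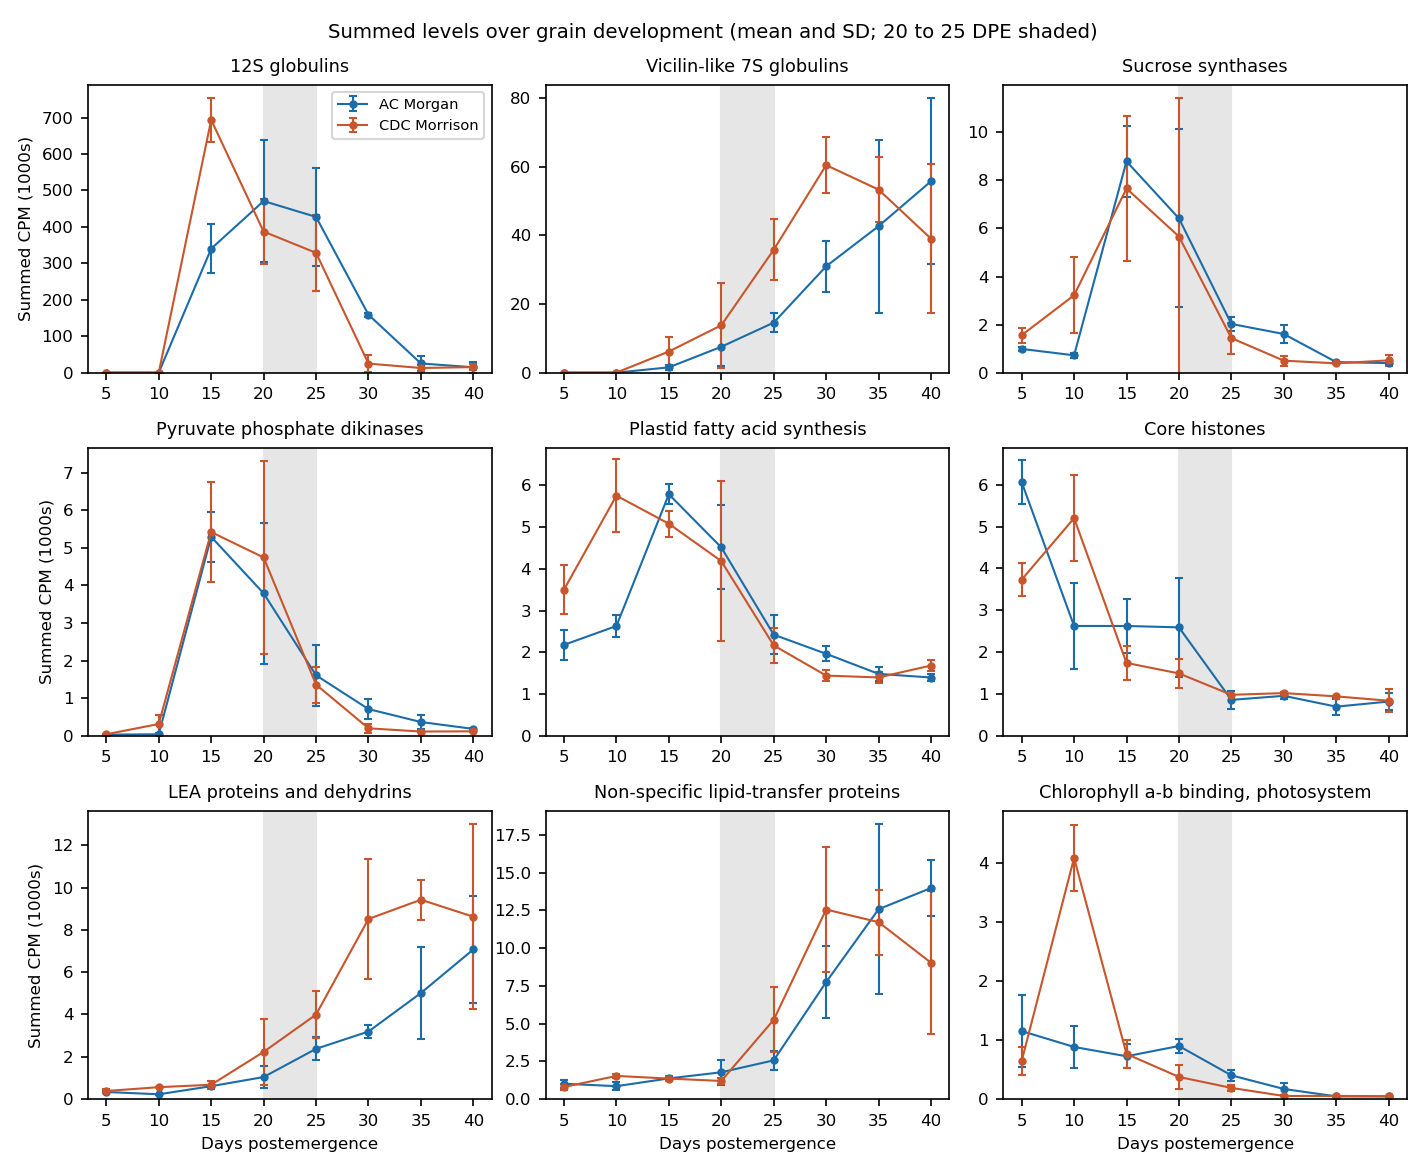
Summed levels of 9 gene lists (in units of 1000 CPM, linear axes from 0) against days postemergence, as mean and SD of 3 libraries (2 for CDC Morrison at 10 DPE), with the span from 20 to 25 DPE shaded. Levels are scaled over 47 libraries and are not shares of the counts. Core histone RNA in AC Morgan falls from 2593 to 860 CPM inside the shaded span, and 12S globulin RNA is at 158956 CPM in AC Morgan and 24867 CPM in CDC Morrison at 30 DPE, after it.

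Dry grain of the same cultivars, divided into embryo and endosperm before imbibition, gave a second readout, looked at after the other results and with no test. Of 4210 genes that rose and were measured there, 5.11% were at least 4 times higher in dry embryo than in dry endosperm and 4.73% at least 4 times lower. Over all 50490 such genes the shares were 5.22 and 4.07%. Of 3583 genes that fell, 8.60 and 5.67% were so placed. The shares of the risers therefore lay near those of all genes, and the dry embryo share of the genes that fell was the one farthest from it.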

How the data were processed

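The authors trimmed the reads, removed rRNA reads with Bowtie2, quantified transcripts of the oat reference OT3098 v2 with Salmon and added them up per gene through tximport. They deposited estimated counts for 68572 genes, neither normalized nor filtered, and variance-stabilized values from DESeq2, which lie on a log2-like scale. Tool versions were not given in the sources used here, and the submitters' notes also name FastQC and Trim Galore.

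Samples were grouped by the cultivar, tissue and time in their labels. The estimated counts were rounded, and genes that reached 5 counts in 3 or more of the 12 libraries were tested in R 4.3.3 with edgeR 4.0.16 (TMM, quasi-likelihood test, cultivar as a block, Benjamini-Hochberg adjustment over all genes tested, threshold 0.05). Changes within cultivars and their difference came from a fit of 4 groups. The SE of a change was taken as its absolute value divided by the square root of the F of its test, an approximation. Where counts at 1 time were near 0, the size of the fitted change depends on the prior count. Principal components used log2 CPM with a prior count of 2. Summaries used Python 3.11.15, numpy 2.4.6, pandas 2.3.3 and matplotlib 3.10.9, and the fit was tested on simulated counts. Counting intervals are exact (Clopper-Pearson) at 95%, and they and floors of 3 counts cover counting error only. Each replicate is the grain of 1 panicle, so p-values measure the spread between panicles. All replicate pairs differed by more than sampling noise. No label says what a shared replicate number marks. Deviations from the group means of same-numbered libraries at 20 and 25 DPE correlated at 0.16, 0.272 and 0.197 in CDC Morrison, where the numbers were therefore taken to pair the libraries. In AC Morgan they correlated at 0.204, 0.0514 and 0.104, and the numbers were not taken as pairs. The fit of 4 groups and the fit with cultivar as a block leave the pairing out, also for CDC Morrison. Counts with a replicate block take it in. Other pairs lay from -0.233 to 0.0883.

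The 64 gene lists were matched by words in the deposited protein names, and they and the comparison were chosen with earlier results of these data known. Genes named were the 10 higher and 10 lower with the smallest p among those with a protein name, a change of at least 1 on the log2 scale and no overlap between the times in either cultivar, the 3 members with the most counts and the member with the smallest p in each direction of each list, and the gene called in the difference between cultivars. Not all members named by this rule are described. Alternatives were DESeq2 1.42.0, limma 3.58.1 on the deposited log2-like values, RLE factors, library size alone, no filter, filterByExpr, 47 libraries, 4 groups, a replicate block, thinning, single cultivars and leaving out each library. Leaving out the 2 libraries that stand apart and the replicate block within single cultivars were added after seeing the data. A further 83 columns of the deposited tables were not used. Sequences and positions beyond the chromosome in the identifier were not analysed here.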

Additional observations from a re-analysis of the deposited data

Results flagged for a closer look

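The gene 3Ag0002054, a match to the GDSL esterase/lipase At5g45670, was the one whose change from 20 to 25 DPE differed between the cultivars, by 7.23 on the log2 scale (CDC Morrison change minus AC Morgan change) with an adjusted p of 0.0359 by the interaction term of edgeR's quasi-likelihood test. It fell in all 3 AC Morgan libraries, from 11.6 to 17.0 CPM to at most 0.169 CPM, and lay between 1.05 and 4.87 CPM at both times in CDC Morrison. With AC Morgan near 0 at 25 DPE, the size of the difference depends on the prior count. The difference passed the threshold in 11 of 22 alternatives, with adjusted p from 7.35e-15 to 0.187 and a difference from 5.14 to 7.81.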

How the results depend on the processing

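Over the alternatives, each count of genes higher or lower at 25 DPE was above 2000. After thinning to the lowest total, 21957998 counts, 4455 genes were higher and 4381 lower. Scaling by library size alone moved the median of all genes from -0.02 to 0.105 on the log2 scale and the calls to 5462 higher and 2646 lower (67.4% higher, against 47.1%). A change of at least 1 on the log2 scale left 2136 and 2547. Leaving out the pair of libraries that stand apart left 2529 and 2404, with fewer samples in the fit. Leaving out 1 library gave 2498 to 5127 genes higher and 2718 to 4908 lower. The counts were more than 1.5 times smaller without AC Morgan 25 DPE replicate 1 (2783 and 2764), AC Morgan 25 DPE replicate 2 (2498 and 2718) and CDC Morrison 25 DPE replicate 3 (2845 and 2946), and the lower count without CDC Morrison 20 DPE replicate 2 (3176). The cause was not tested. Single-library omissions gave 188 to 6415 calls in AC Morgan, 0 to 270 in CDC Morrison and 0 to 47 for the difference of the changes. The last was 93 by DESeq2, 4 with 47 libraries, 74 without the pair, 0 with library size alone and 0 with a replicate block. Calls in CDC Morrison were 0 with its libraries fitted alone, 27 without the pair and 772 with a replicate block (4645 in AC Morgan).

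With a replicate block 4605 genes were higher and 4832 lower. Over both cultivars 1 of the 6 same-numbered pairs, replicate 2 of AC Morgan at 0.0514, was under a correlation of 0.1. The main fit over both cultivars therefore did not use the numbers as pairs, although 5 of the 6 libraries at 20 DPE correlated best with their own number.

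Of the 106 genes the report follows by name, 86 were called and 72 of these were called under every alternative, with no called gene changing sign. Genes were followed in part for a small p or no overlap in the same main fit, so this count does not measure how stable all calls are. Of all 9135 calls of the main fit, 4534 were kept with the same sign without the pair and 5186 without AC Morgan 25 DPE replicate 2. The avenin-3 gene 1Dg0002263, which was not called, had a change of 0.01 with library size alone and of -0.21 (without CDC Morrison 25 DPE replicate 2) to 0.01 (without CDC Morrison 20 DPE replicate 1) when 1 library was left out.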

Other observations

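Some families outside the lists, picked after their values had been seen and therefore given as values only, moved mostly one way over the 12 libraries, against 7.42% of all genes tested that rose and 8.33% that fell. Among chaperones, 12 of 38 HSP70 genes and 8 of 33 ClpB genes rose and none fell, and without the 2 libraries that stand apart 8 and 5 rose. HSP70 proteins fold and refold other proteins, and ClpB proteins pull aggregates apart. Of 23 genes for ABC transporters of the F family 8 rose and none fell, with 6 higher without these libraries. Of 19 genes for nucleolar proteins, named for the site of ribosome assembly, 9 rose and none fell, with 3 higher without these libraries.

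Of 40 genes for 3-ketoacyl-CoA synthases, which lengthen fatty acids for waxes and cutin, 14 fell and none rose (median change -0.95 on the log2 scale), and 12 fell without the 2 libraries. Of 141 GDSL esterase/lipase genes 42 fell and 5 rose, and 30 fell and 2 rose without them. Of 39 genes for fasciclin-like arabinogalactan proteins, glycoproteins of the cell surface, 13 fell and none rose (6 fell without them), and of 32 genes for 65-kDa microtubule-associated proteins, which bundle microtubules, 13 fell and 1 rose (9 and 1 without them). Of 16 genes for 14-3-3-like proteins 11 fell and none rose, with 4 lower without these libraries, and of 59 genes for IQ-domain proteins, which bind calmodulin, 16 fell and 3 rose, with 3 lower and 2 higher without them.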
